A study of Mus musculus with 63 samples.

Results

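The 10 genes described here activate fatty acids, carry them into the mitochondrion and begin their oxidation: Acsl6, Cpt1a, Cpt1c, Slc25a20, Cpt2, Acadvl, Acadl, Acadm, Hadha and Hadhb. They are 10 of the 24990 gene rows in each deposited table, found by gene identifier, and none shares its row with another gene. The list was picked with results of these libraries known: Cpt1a was the 1 gene called for a response to the inverted promoter that differed between NPCs and serum, and Acsl6 was lower in the lines without the promoter. Other fits called more genes for that difference, as given below. Values that made that choice are given below as descriptions. Where a call on them is mentioned, the choice favoured it in advance, and nothing is read from it or from fits that kept it. The libraries hold polyadenylated RNA of the R1 mouse embryonic stem cell line and of its neural progenitor derivatives (NPCs), from a study of how Meteor, a locus of a long non-coding RNA, bears on Eomes levels. The genotype series held 2 lines with a Meteor promoter KO (pKO1, pKO2), 1 line with a Meteor promoter inversion (pInv) and 2 wild-type lines (WT1, WT2), each as stem cells in 2i, as stem cells in serum and as NPCs. The perturbation series held 2 lines with CRISPR KD of Meteor (KD1, KD2), by dCas9 per the sample labels and by Cas9 per the series text, and an empty vector line (Ctrl), in serum and as NPCs. There were 3 libraries for each of the 21 combinations of line and state, 63 in all. Stem cells of every line grew with LIF on mouse embryonic fibroblast feeders, either in a serum-free medium with a MEK and a GSK3 inhibitor (2i) or in 15% serum. NPCs were collected after 4 days of neuronal differentiation in a serum-free medium without LIF, begun from serum cultures passaged without feeders; replicate 3 of the Ctrl NPCs has no growth protocol in the labels. The labels do not say whether a line is a single clone or whether the 3 libraries of a line and state stem from separate cultures, so p-values measure only the spread between these libraries.

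Long-chain fatty acids are joined to coenzyme A by acyl-CoA synthetases, of which Acsl6 is a form best known from brain. Carnitine palmitoyltransferase 1 on the outer mitochondrial membrane then moves the acyl chain onto carnitine, which is the rate-limiting and malonyl-CoA-sensitive step. Cpt1a is the widely expressed form of that enzyme, and Cpt1c is a neuronal form located in the endoplasmic reticulum with little activity of its own. Slc25a20, the carnitine-acylcarnitine translocase, exchanges acylcarnitine for carnitine across the inner membrane, and Cpt2 moves the chain back onto coenzyme A. Acadvl, Acadl and Acadm encode the very-long-, long- and medium-chain acyl-CoA dehydrogenases of the first oxidation step. Hadha and Hadhb encode the subunits of the trifunctional protein, which carries out the steps that follow on long chains.

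The promoter windows of 4 members show 2 features of their position and sequence. The RefSeq table (build GRCm38.p6) holds windows from 250 bases before to 50 bases after a start for all 10 genes, 12 windows in all because Acsl6 has 3 starts. Cpt1a and Slc25a20 are shown because their levels followed each other most closely among the members, and Acsl6 (its first start) because its window holds the single match to the ERR element; capitals mark matches on either strand to the nuclear receptor half-site AGGTCA, to the ERR element TCAAGGTCA, which contains that half-site, and to the GC box GGGCGG. Hadha is shown because 228 of its 300 bases, in capitals, lie inside the Hadhb window on the opposite strand, and the starts of the 2 subunit genes are 273 bases apart.
Cpt1a, chr19:3323051-3323350, plus strand: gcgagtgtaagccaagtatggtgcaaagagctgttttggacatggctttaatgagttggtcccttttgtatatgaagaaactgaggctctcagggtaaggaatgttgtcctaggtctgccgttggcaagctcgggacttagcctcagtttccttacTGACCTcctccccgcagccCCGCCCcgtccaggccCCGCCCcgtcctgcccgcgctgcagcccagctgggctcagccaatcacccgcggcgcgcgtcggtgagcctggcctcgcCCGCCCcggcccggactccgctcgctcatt
Slc25a20, chr9:108661886-108662185, plus strand: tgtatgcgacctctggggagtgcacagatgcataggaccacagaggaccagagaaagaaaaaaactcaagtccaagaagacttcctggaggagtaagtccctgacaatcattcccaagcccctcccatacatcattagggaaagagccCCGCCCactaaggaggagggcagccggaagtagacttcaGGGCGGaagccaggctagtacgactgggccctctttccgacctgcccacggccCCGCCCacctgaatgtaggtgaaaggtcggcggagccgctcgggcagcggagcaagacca
Acsl6, chr11:54303574-54303873, plus strand: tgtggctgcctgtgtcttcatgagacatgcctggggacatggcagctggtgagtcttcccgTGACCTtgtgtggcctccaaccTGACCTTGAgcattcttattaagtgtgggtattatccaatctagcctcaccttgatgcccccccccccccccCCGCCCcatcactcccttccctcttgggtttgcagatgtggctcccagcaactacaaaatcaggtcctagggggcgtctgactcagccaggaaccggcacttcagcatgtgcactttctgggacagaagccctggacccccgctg
Hadha, chr5:30154931-30155230, minus strand: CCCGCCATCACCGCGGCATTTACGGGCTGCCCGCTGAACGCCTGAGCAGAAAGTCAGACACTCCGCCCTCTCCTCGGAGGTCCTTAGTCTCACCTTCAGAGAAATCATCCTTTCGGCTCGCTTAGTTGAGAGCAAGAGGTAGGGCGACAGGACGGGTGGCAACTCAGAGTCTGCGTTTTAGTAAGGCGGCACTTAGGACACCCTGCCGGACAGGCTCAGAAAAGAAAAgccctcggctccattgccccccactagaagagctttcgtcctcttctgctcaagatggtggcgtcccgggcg
A GC box was present in 8 of the 10 genes, against 35.6% of the 32817 windows of this length in the table. The half-site was present in 5, namely Cpt1a, Cpt1c, Acadm, Acadvl and Acsl6, against 16.3% of all windows. The ERR element occurs in 0.424% of all windows. The DR1 element, which is 2 of these half-sites in a row with 1 base between them and is bound by PPAR with RXR, occurs in 0.0396% of all windows and in none of the members'. The member counts are of genes and the shares are of windows, and Acsl6 counts with a match in any of its 3 windows. GC content was 47.3% to 76% in the member windows, beside a median of 52.7% over all windows. The CpG count was 1 to 36, beside a median of 7. These matches are descriptions of letters in the windows and were not tested.

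Library depth ran from 7566629 to 18553323 counts. Levels are given as CPM, the count scaled to the library total, or, where genes are compared with each other, as the deposited length-scaled TPM. Log2 fold changes carry their standard error (SE) and, where tested, an adjusted p from edgeR's quasi-likelihood test, which was fitted across all genes. Meteor is not a symbol in the tables; Platr11, a non-coding RNA beside Eomes in the reference annotation that no source used here equates with Meteor, was at 0 to 0.367 CPM in the pKO and pInv libraries and at 4.56 to 26.9 in the WT libraries. It was at 0.497 to 4.1 CPM in the KD libraries and at 8.31 to 23.9 in the Ctrl libraries. In the WT lines the summed level of 9 pluripotency markers was 6051 to 7655 CPM in 2i, 2886 to 4153 in serum and 695 to 1397 in NPCs, and that of 10 neural progenitor markers was 133 to 244, 104 to 135 and 185 to 528, the NPC libraries thus still holding pluripotency transcripts.

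The order of the 10 genes by level changed with the culture state, and Cpt1a moved through it the furthest. In the 6 WT libraries in 2i it had the highest mean of the 10, 65.8 ± 10.5 TPM (SD, n = 6), followed by Slc25a20 (59 ± 9.32), whose spread overlapped that of Cpt1a. Cpt2, Acadm, Hadhb, Cpt1c, Acadl and Hadha followed between 43 ± 7.36 and 31.4 ± 2.1 TPM, and neighbours in that order did not differ beyond their spread. Acsl6 (7.25 ± 4.68) and Acadvl (7.09 ± 2.53) were the lowest pair. In WT serum cultures Hadhb led at 54.7 ± 5.55 TPM, Acadl, Cpt2, Acadm, Hadha and Cpt1c followed between 43.1 ± 4.36 and 28.7 ± 5.65, and Slc25a20 (17.7 ± 0.642), Cpt1a (11.6 ± 1.93), Acadvl (9.72 ± 1.37) and Acsl6 (2.45 ± 0.898) came last. In WT NPCs Cpt2 was the highest at 58.8 ± 6.09 TPM, then Acadl at 44.4 ± 8.68, Cpt1c at 33.9 ± 8.27, Hadhb at 24.8 ± 7.18 and Acadm at 23.8 ± 4.82. Hadha (17.2 ± 1.21) stood between these and the lowest 4, which were Slc25a20 (7.64 ± 1.74), Acsl6 (4.87 ± 0.77), Acadvl (3.57 ± 1.46) and Cpt1a, now last at 1.74 ± 0.909 TPM. From Cpt2 down to Acadm, and from Acsl6 down to Cpt1a, neighbours lay within the sum of their SDs.

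**Figure D1:**
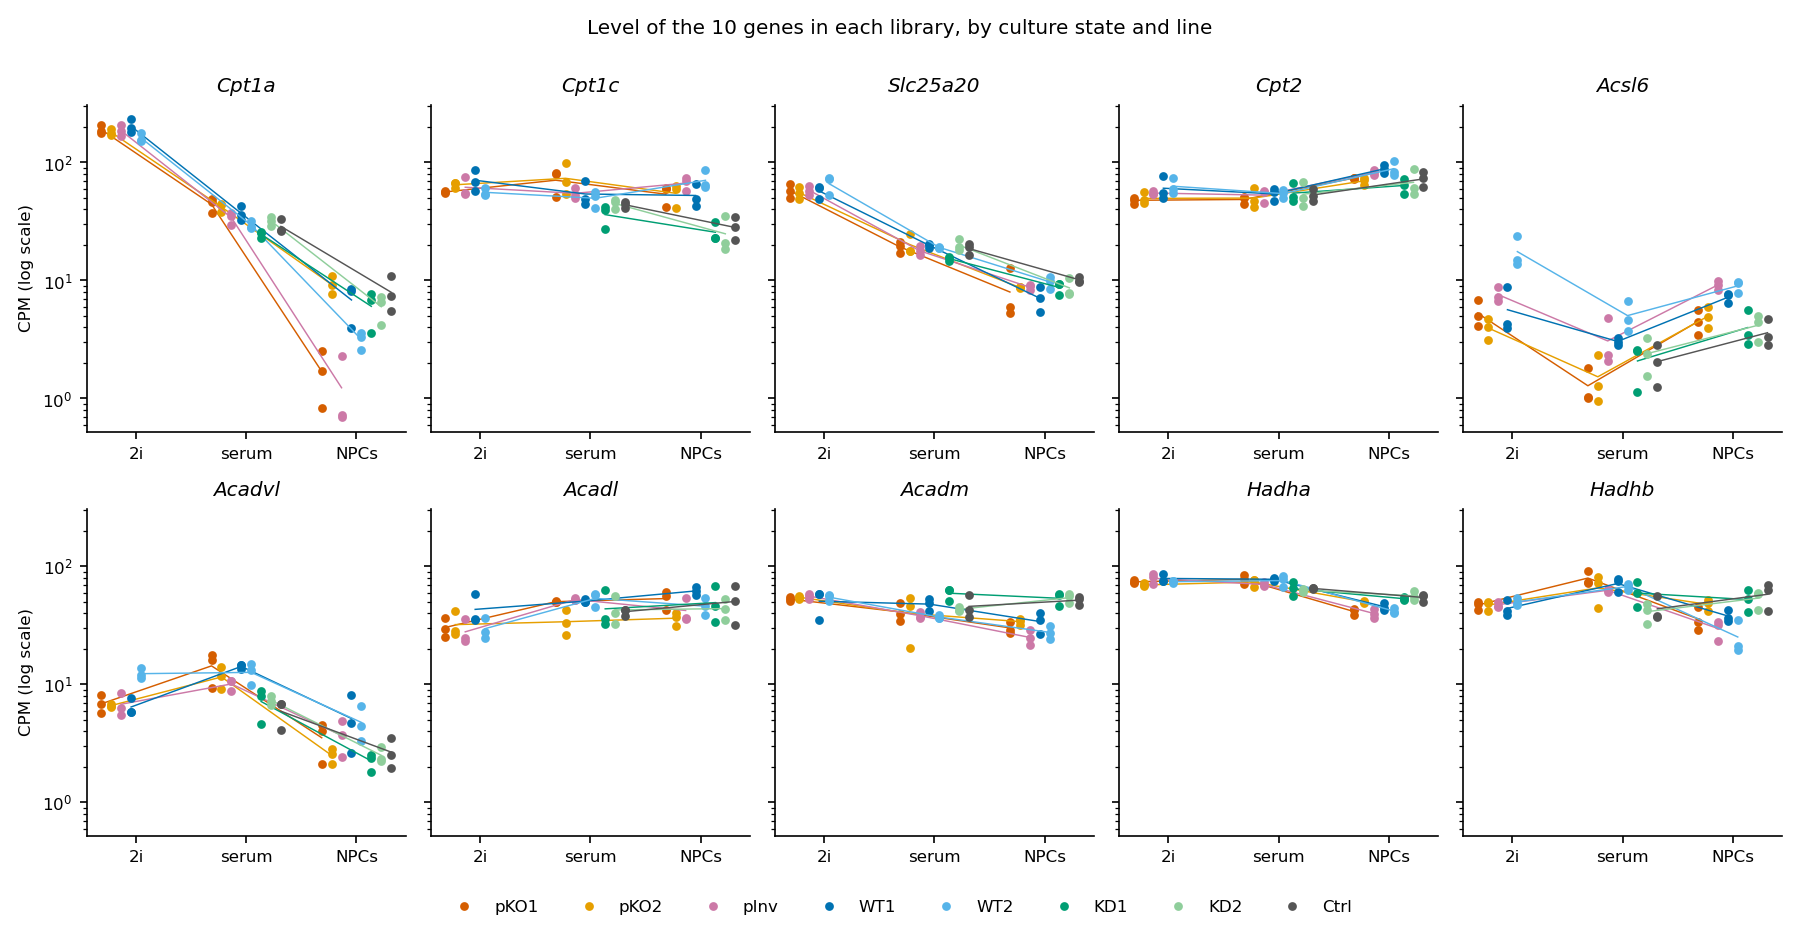
Level of each of the 10 genes in every library, in CPM on a log axis, by culture state; points are libraries, lines join the mean of each line, and colours give the lines. Cpt1a and Slc25a20 step down from 2i to serum to NPCs in every line, and the points of Cpt2, Acadl and Cpt1c span a narrower range.

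Cpt1a and Slc25a20, which bring acyl chains into the mitochondrion, were lower at each step of the states. Cpt1a, the gate of the pathway, had 152 to 231 (median 179.8) CPM in the 6 WT libraries in 2i, 27.8 to 42.6 (median 32.2) in serum and 2.58 to 8.45 (median 3.77) in NPCs. No library of a later state reached the lowest of the state before. It fell in serum against 2i (log2 fold change −2.48 ± 0.17, adjusted p = 5.45e-15) and again in NPCs against serum (−2.91 ± 0.18, adjusted p = 1.09e-15). Slc25a20, the next carrier, had 49 to 73.2 (median 61.4) CPM in 2i, 18.9 to 20.4 (median 19.1) in serum and 5.45 to 10.8 (median 8.61) in NPCs, also without overlap. Its falls were smaller, −1.69 ± 0.14, adjusted p = 1.02e-12 in serum against 2i and −1.31 ± 0.14, adjusted p = 8.22e-10 in NPCs against serum. Of all genes tested, 17.6% had every WT serum library below every 2i library, and 17.5% had every NPC library below every serum library. Across the 21 group means the 2 genes had a Pearson r of 0.955 on log2(CPM + 1), the highest of the 45 pairs of members; the groups share lines and culture states, so this is a description.

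Cpt2, on the inner side of the membrane, did not follow them. It had 49.8 to 76.3 (median 57.3) CPM in 2i, 47.2 to 59.7 (median 55.4) in serum and 78.8 to 104 (median 85.6) in NPCs in the WT lines. All 6 NPC libraries lay above all 6 serum libraries, as for 20.3% of all genes tested. The rise in NPCs against serum passed (0.61 ± 0.11, adjusted p = 6.85e-06), whereas serum against 2i did not (−0.21 ± 0.11, adjusted p = 0.0852). With replicate numbers as a block, which pair the 2i and serum libraries, Cpt2 was called lower in serum against 2i (−0.20 ± 0.09, adjusted p = 0.0427). Cpt1c, the neuronal form, passed neither step in the WT lines (−0.31 ± 0.16, adjusted p = 0.0987 and 0.14 ± 0.16, adjusted p = 0.453), with 42.6 to 86.5 (median 62.6) CPM in NPCs and 40.8 to 69 (median 50.3) in serum. Acsl6, the activating enzyme, had 3.96 to 23.8 (median 11.3) CPM in 2i, 2.85 to 6.7 (median 3.5) in serum and 6.41 to 9.76 (median 7.74) in NPCs. It fell in serum against 2i (−1.38 ± 0.23, adjusted p = 3.79e-06) and rose in NPCs against serum (0.95 ± 0.23, adjusted p = 0.000448), where the groups overlapped only between the highest serum library and the lowest NPC library. The rise was 0.73 and lost its call with WT2 as the one WT line.

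The oxidation enzymes went different ways. Acadvl, the first dehydrogenase for the longest chains, had 5.81 to 13.8 (median 9.48) CPM in 2i, 9.94 to 14.9 (median 13.9) in serum and 2.64 to 8.05 (median 4.6) in NPCs in the WT lines, so it was highest in serum. It rose in serum against 2i (0.56 ± 0.21, adjusted p = 0.0221) and fell in NPCs against serum (−1.53 ± 0.22, adjusted p = 1.65e-07). With WT2 as the one WT line the first step was 0.03 and no longer passed; the 2 WT lines differed in 2i, as given below. Acadl rose in serum against 2i (0.51 ± 0.15, adjusted p = 0.00399), a call lost with WT1 as the one WT line (0.175), and did not pass in NPCs against serum (−0.06 ± 0.15, adjusted p = 0.756). Acadm, which acts on medium chains, fell at both steps (−0.35 ± 0.14, adjusted p = 0.0287, and −0.55 ± 0.14, adjusted p = 0.000723). The call at the first step was lost with WT1 as the one WT line (−0.13) and without any 1 of 9 of the 12 libraries (all but replicate 1 of WT1 in 2i and replicates 2 and 3 of WT1 in serum), with values of −0.33 to −0.28. The 2 subunits of the trifunctional protein, whose promoter windows overlap, differed in the first step: Hadha did not pass in serum against 2i (−0.03 ± 0.07, adjusted p = 0.773), with 66.8 to 82.9 (median 77.9) CPM in serum and 72.6 to 87 (median 75.1) in 2i. Hadhb rose in serum (0.54 ± 0.13, adjusted p = 0.000564), with 60.7 to 78.9 (median 69.6) CPM against 39.1 to 53.8 (median 48.2) in 2i. Every serum library was above every 2i library, as for 19.5% of all genes tested. With WT2 as the one WT line the Hadhb call was lost (0.43). Both fell in NPCs against serum, Hadha by 0.90 ± 0.07 (adjusted p = 2.56e-13) and Hadhb by 1.25 ± 0.13 (adjusted p = 3.07e-10) on the log2 scale.

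Counted together, 3 members rose and 4 fell in WT serum against 2i, a comparison in which 58.2% (29.1% higher and 29.2% lower) of all genes tested passed, and 2 rose and 6 fell in WT NPCs against serum, where 66.0% (31.9% higher and 34.1% lower) passed. The median change over the 10 was −0.26, beside 0.01 over all genes tested, at the first step and −0.73, beside −0.02 over all genes tested, at the second. In these bulk libraries, fewer cells of a type and less RNA per cell cannot be told apart. Feeder and macrophage transcripts differed between the same states. In the WT lines the summed level of 16 feeder fibroblast markers was 4037 to 4470.0 CPM in 2i, 5987 to 10190.0 in serum and 377 to 1237 in NPCs, none of the 16 at 0 in all libraries of a state, and that of 10 macrophage markers was 39.2 to 141, 202 to 451 and 3.92 to 8.14, with Mpeg1, Ptprc, C1qb and C1qc at 0 in all 6 WT NPC libraries. Their part in the results was not tested.

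The pKO and pInv lines took the same 2 steps. In serum against 2i, 3 members rose and 4 fell in pKO (58.1% of all genes passed, 30.1% higher and 28.0% lower) and 1 rose and 4 fell in pInv (44.3%, 22.6% higher and 21.7% lower). In NPCs against serum, 2 rose and 7 fell in pKO (63.0%, 29.8% higher and 33.2% lower) and 2 rose and 6 fell in pInv (47.3%, 21.9% higher and 25.4% lower). Cpt1a fell by 2.11 ± 0.16 and 2.44 ± 0.24 (log2) in pKO and pInv serum against 2i, and Slc25a20 fell by 1.53 ± 0.14 and 1.69 ± 0.20. In NPCs against serum Cpt1a was lower by 3.57 ± 0.19 in pKO and by 4.96 ± 0.31 in pInv. Cpt1c was the member that passed in pKO NPCs against serum (−0.54 ± 0.16, adjusted p = 0.00342) without passing in pInv (0.18 ± 0.23, adjusted p = 0.541) or WT. The difference of that step between pKO and WT was −0.68 ± 0.23 and was not called. With replicate numbers as a block it was −0.66 ± 0.20 and was called, where 10.2% of all genes passed. That block covers the NPCs of this series, in which the numbers were not read as pairing libraries. In pKO serum cultures Cpt1c had 51 to 98.5 (median 73.5) CPM and in pKO NPCs 40.9 to 63.8 (median 59.5). No member was called for a pKO effect that differed between states without the block (0 of 10 for serum minus 2i, where 1.13%, that is 0.6% higher and 0.529% lower, of all genes passed, and 0 of 10 for NPCs minus serum, where 4.02%, that is 1.97% higher and 2.05% lower, did).

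The states of serum and NPCs were also compared in the perturbation series. In the Ctrl line 4 members fell and none rose in NPCs against serum (54.4% of all genes passed, 27.2% higher and 27.2% lower), and in the KD lines 4 fell and 1 rose (67.6%, 33.6% higher and 34.0% lower). Cpt1a had 5.5, 7.42 and 10.9 CPM in Ctrl NPCs and 26.7, 26.5 and 32.9 in Ctrl serum cultures, and it fell (−1.86 ± 0.28, adjusted p = 6.14e-05). Slc25a20 had 10.7, 9.95 and 9.72 CPM in Ctrl NPCs and 16.4, 20.3 and 19.2 in serum (−0.88 ± 0.17, adjusted p = 0.000488). For both genes every NPC library was below every serum library, as for 31.0% of all genes tested. Acadvl (−1.16 ± 0.30, adjusted p = 0.00412) and Cpt1c (−0.63 ± 0.22, adjusted p = 0.0241) were the other falls. The Cpt1c call was lost without replicate 2 (−0.45) or 3 (−0.61) of the Ctrl NPCs or replicate 1 (−0.59) or 3 (−0.60) of the Ctrl serum cultures. The trifunctional subunits and Acadm, which fell in WT NPCs, did not pass here: Hadha was −0.26 ± 0.12, adjusted p = 0.0717, Hadhb 0.41 ± 0.25, adjusted p = 0.177 and Acadm 0.18 ± 0.16, adjusted p = 0.366. In Ctrl NPCs Hadhb had 41.8, 69.8 and 62.6 CPM and in Ctrl serum cultures 37.6, 55.7 and 37.9, whereas WT NPCs had 19.6 to 42.8 (median 34.7) and WT serum cultures 60.7 to 78.9 (median 69.6). The 2 series were fitted apart and the difference between them was not tested. With replicate numbers as a block, which pair the libraries of this series, the Ctrl count was 3 rises (Acsl6, Cpt2 and Hadhb) and 5 falls, Hadha joining the other 4, with 70.7% of all genes passing. Summed pluripotency markers were 1893 to 2955 CPM in Ctrl NPCs, above the 695 to 1397 of WT NPCs, and summed feeder markers were 2158 to 3987 in Ctrl serum cultures, below the 5987 to 10190.0 of WT. Summed neural progenitor markers overlapped between the Ctrl states, unlike in WT. They were at 162 to 254 CPM (median 232.9) in Ctrl serum cultures and 164 to 344 (median 202) in Ctrl NPCs. The part of these markers in the result was not tested.

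**Figure D2:**
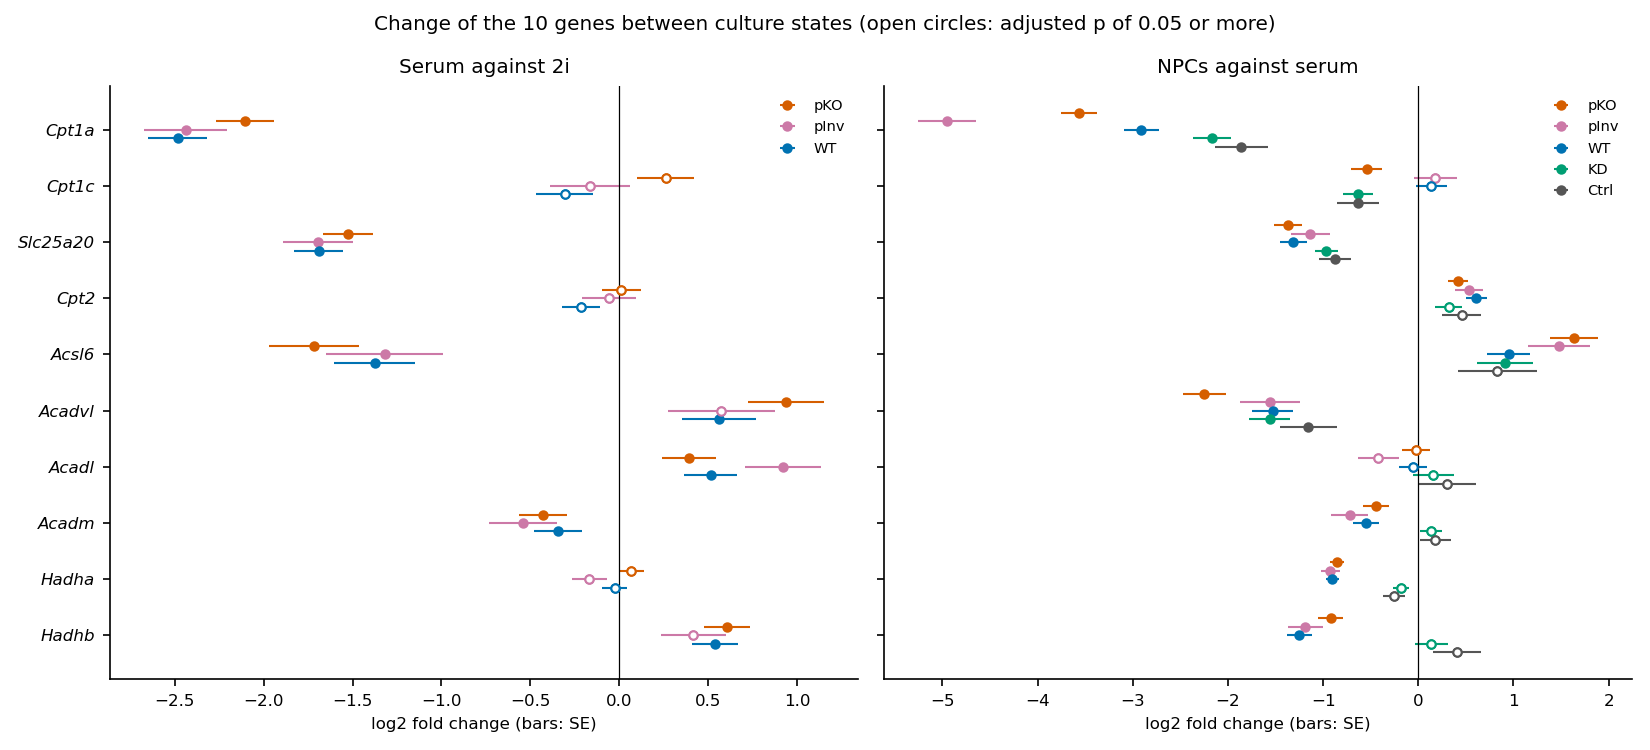
Log2 fold change of each gene in serum against 2i (left) and in NPCs against serum (right), with SE as bars, for pKO, pInv and WT and, on the right, KD and Ctrl; open circles did not reach an adjusted p of 0.05. Cpt1a is the furthest to the left in both panels, and Hadha, Hadhb and Acadm sit nearer to 0 in KD and Ctrl than in the genotype series.

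The wider pathway, read from 5 lists of 78 genes that were chosen with results of these data known, is given as counts beside the shares of all genes that passed, which were 58.2% in WT serum against 2i, 66.0% in WT NPCs against serum and 54.4% in Ctrl NPCs against serum. Over both directions together, the counts of the mitochondrial and peroxisomal lists lay near those shares at the first step. By direction they did not, since falls outnumbered rises in both lists while 29.1% of all genes were higher and 29.2% lower. Of the other mitochondrial beta-oxidation enzymes, 1 rose and 9 fell of 18 tested in WT serum against 2i (median −0.23), among them Hadh, the short-chain hydroxyacyl-CoA dehydrogenase (−0.44 ± 0.07), and Echs1, the short-chain enoyl-CoA hydratase (−0.53 ± 0.09). In WT NPCs against serum 5 rose and 3 fell of 18 tested (median 0.07): Acaa2, a thiolase, fell (−1.37 ± 0.13), while Echs1 (0.86 ± 0.09) and Decr1, a reductase for unsaturated chains (1.10 ± 0.16), rose. In Ctrl NPCs against serum 8 rose and 2 fell of 18 tested, with Decr1 (1.53 ± 0.19) and Etfa, an electron carrier subunit for the dehydrogenases (1.12 ± 0.20), among the rises. Carnitine uptake, synthesis and acyl-CoA activation genes were divided, with 6 of 16 tested rising and 6 falling at the first step and 4 of 16 tested rising and 5 falling at the second. Among the synthetases, Acsl5 rose (2.11 ± 0.15) and Acsl1 fell (−1.32 ± 0.12) in serum against 2i, and Acsl4 rose (1.85 ± 0.15) and Acsl5 fell (−1.13 ± 0.14) in NPCs against serum.

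Of the peroxisomal oxidation genes, 3 rose and 7 fell of 15 tested in WT serum against 2i and 1 rose and 10 fell of 15 tested in WT NPCs against serum, where the median was −0.60. Abcd2, a peroxisomal fatty acid transporter, rose at the second step (2.50 ± 0.45). Among the PPAR regulators, partners and targets 3 rose and 6 fell of 16 tested in WT serum against 2i, and 3 rose and 9 fell of 16 tested in WT NPCs against serum, including Angptl4, a lipoprotein lipase inhibitor (−2.53 ± 0.28). Ppargc1b, a coactivator of mitochondrial genes, fell in serum (−1.50 ± 0.19) and rose in NPCs (1.84 ± 0.18), unlike Cpt1a. Of 8 genes for the malonyl-CoA control of Cpt1, 3 fell in serum against 2i: Prkaa2, a catalytic subunit of AMP kinase (−1.86 ± 0.18), Acacb, the mitochondrial acetyl-CoA carboxylase (−0.83 ± 0.18), and Mlycd, which breaks malonyl-CoA down (−0.88 ± 0.29). Mlycd (1.4 ± 0.29) and Prkaa2 (0.60 ± 0.17) rose in NPCs against serum and Prkag1, an AMP kinase subunit, fell (−0.70 ± 0.12). Over all genes tested the medians were 0.01 and −0.02 at the 2 steps.

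Deletion of the promoter was then set against WT within each state. Acsl6, one of the 2 genes for which the list was picked, had 1.81, 1.03 and 1.01 CPM in pKO1 and 1.27, 0.955 and 2.35 in pKO2 serum cultures, against 3.25, 2.85 and 3.03 in WT1 and 3.76, 4.65 and 6.7 in WT2. Every pKO library was below every WT library, as for 2.99% of all genes tested. In NPCs Acsl6 had 3.42, 4.45 and 5.61 CPM in pKO1 and 4.94, 6.01 and 3.98 in pKO2, against 7.7, 7.49 and 6.41 in WT1 and 9.48, 9.76 and 7.77 in WT2. Every pKO library was again below every WT library, as for 2.51% of all genes tested. In 2i it had 6.78, 4.11 and 4.95 CPM in pKO1 and 4.73, 4.07 and 3.14 in pKO2, against 8.77, 4.23 and 3.96 in WT1 and 23.8, 15 and 13.9 in WT2. There the pKO libraries overlapped those of WT1, and all 3 WT2 libraries stood above them. The log2 differences were −1.09 ± 0.24 in 2i, −1.45 ± 0.29 in serum and −0.72 ± 0.19 in NPCs, and with WT1 as the one WT line they were −0.29 in 2i, −1.06 in serum and −0.58 in NPCs.

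Acsl6 lies on chromosome 11, and genes of that chromosome were lower in pKO as well. The median log2 difference of chromosome 11 genes in pKO against WT was −0.22 in 2i, −0.33 in serum and −0.38 in NPCs, against −0.01, 0.02 and 0.01 over all genes, and 19.7%, 24.9% and 27.4% of its tested genes were called lower. Of the 10 tested genes nearest to Acsl6, 5 on each side, those below 0 were 8 of 10 (median −0.20) in 2i, 7 of 10 (median −0.25) in serum and 9 of 10 (median −0.65) in NPCs. The neighbour Slc22a5, the plasma membrane carnitine transporter, was at −0.13 ± 0.12 in 2i, −0.77 ± 0.12 in serum and −0.75 ± 0.19 in NPCs. Acsl6 was further below 0 than all 10 neighbours in 2i and serum, and among them in NPCs. It was picked for its fall in pKO, so this order was favoured in advance and nothing is read from it. These neighbours were chosen after the values were seen. In pInv against WT, 9 of the 10 were below 0 in 2i (median −0.178), 8 in serum (−0.125) and 10 in NPCs (−0.215). Acsl6 in pInv was at −0.38 ± 0.28, −0.35 ± 0.33 and 0.22 ± 0.23 in the same order. The WT lines also differed on this chromosome, with the largest median in 2i, as given below for each state. The part of the chromosome in the Acsl6 result was not tested.

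**Figure D3:**
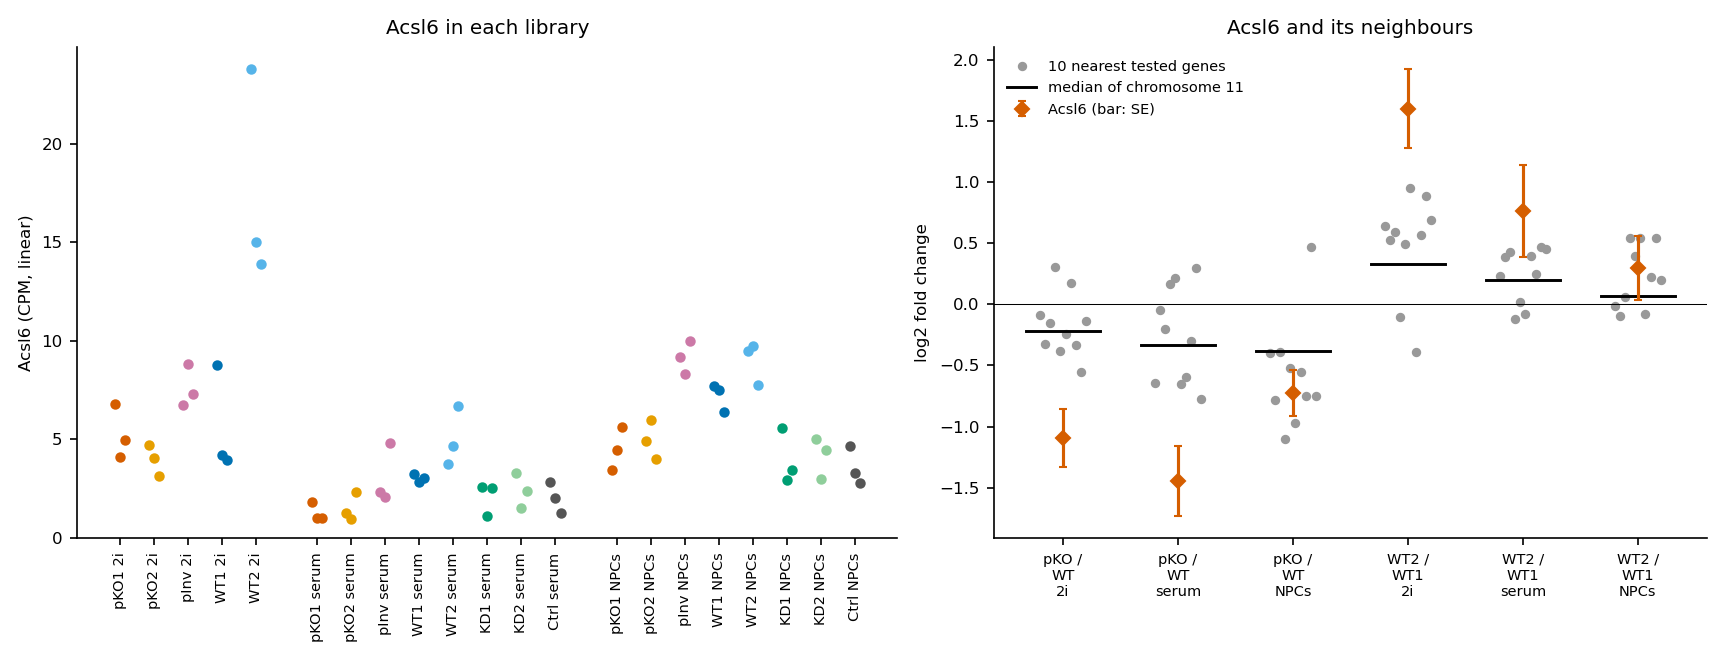
Left, Acsl6 in every library, in CPM on a linear axis, by line and state. Right, log2 fold change of Acsl6 (diamond, bar as SE), of the 5 nearest tested genes on each side (grey) and the median of chromosome 11 (black line), for pKO against WT and for WT2 against WT1 in each state; Acsl6 lies beyond the chromosome median in both sets of comparisons, on opposite sides of 0.

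Among the other members 1 call was made between pKO and WT, Cpt1a in serum. Counting Acsl6, 1 member was called lower in 2i (9.06% of all genes tested passed, 3.29% higher and 5.77% lower), 1 higher and 1 lower in serum (5.95%, 1.77% higher and 4.18% lower) and 1 lower in NPCs (8.05%, 3.45% higher and 4.60% lower); the list was picked on this contrast, so nothing is read from these counts. Cpt1a had 46.4, 48.8 and 37.4 CPM in pKO1 and 43.4, 44.2 and 38.2 in pKO2, against 42.7, 35.9 and 32.4 in WT1 and 31.9, 27.7 and 28.6 in WT2. The groups overlapped, the difference was 0.43 ± 0.11, and the call was lost on leaving out any 1 of 8 libraries (all 3 of WT2, replicates 2 and 3 of WT1, 1 and 2 of pKO1 and 2 of pKO2), with differences of 0.38 to 0.46. It was also lost in 6 of 10 other settings, whose differences ran from 0.28 to 0.57 over all 10. These were WT1, pKO1 or pKO2 as the one line of its genotype, lines as replicates, no filter, and no other genes of chromosome 11. The replicate numbers paired the libraries in 2i and serum, and with them as a block Cpt2 (−0.29 ± 0.07) was called lower beside Acsl6 in 2i (20.9% of all genes), and Cpt1c (0.50 ± 0.12) was called higher and Acadl (−0.31 ± 0.09) lower in serum (20.3%). Slc25a20, Acadm and Hadha differed by −0.08 to 0.10 in the 3 states. Acadvl, also on chromosome 11, was at −0.37 ± 0.14 in 2i, −0.01 ± 0.17 in serum and −0.69 ± 0.31 in NPCs and did not pass. Hadhb in NPCs was at 0.46 ± 0.17, also without passing. Cpt2 in NPCs was at −0.26 ± 0.10 and did not pass. There every pKO library (64.4 to 74.5 CPM) was below every WT library (78.8 to 104) for Cpt2, as for 2.51% of all genes tested. Of the 78 wider pathway genes, 70 were tested in serum, and 3 of the 6 on chromosome 11 were called lower there, namely Slc22a5 and the fatty acid synthesis enzymes Acaca and Fasn, against 1 of the 64 on other chromosomes, Aldh9a1 of carnitine synthesis (−0.60 ± 0.16). In NPCs it was 2 of 6, Slc22a5 and the acyl-CoA synthetase Acsf2, against 2 of 64, and in 2i none of 5 against 7 of 62; 1 gene elsewhere was called higher in serum (Prkag1) and 2 in 2i (Slc27a2 and Ucp2). None of the tested genes of these lists was called by edgeR in pInv against WT in any state or in KD against Ctrl.

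Inversion of the promoter is the contrast on which Cpt1a was picked. In NPCs it had 0.695, 0.731 and 2.27 CPM in pInv, against 8.13, 3.93 and 8.45 in WT1 and 2.58, 3.61 and 3.29 in WT2. Every pInv library was below every WT library, as for 1.70% of all genes tested. The 3 pInv libraries held 10, 10 and 25 counts of the gene, so counting error is large at this level. In serum it had 37.1, 35.5 and 29.6 CPM in pInv, against 42.7, 35.9 and 32.4 in WT1 and 31.9, 27.7 and 28.6 in WT2, with the pInv libraries inside the WT range, and in 2i 183, 206 and 168 in pInv, against 152 to 231 (median 179.8) in WT. The log2 differences were −1.90 ± 0.47 in NPCs and 0.06 ± 0.14 in serum, and their difference, on which the gene was picked, was −2.05 ± 0.36; that call was lost with WT2 as the one WT line (−1.65) and in 7 of 18 fits that left out a library. No member was called in pInv against WT in 2i (0.911% of all genes tested passed, 0.567% higher and 0.344% lower), serum (0.0563%, 0.00704% higher and 0.0493% lower) or NPCs (0.0138%, 0% higher and 0.0138% lower) by edgeR's quasi-likelihood test. At an unadjusted p under 0.05 in that test the counts were 1, 0 and 1, beside 1750, 690 and 1015 of all genes. DESeq2 called 1, Cpt1a in NPCs, where it called 54 of 15148 genes. The pick of Cpt1a used that contrast, so nothing is read from the DESeq2 call. The replicate block gave 1 in 2i, Acadl (−0.36 ± 0.09), where 5.67% of all genes passed. The share of all genes called for NPCs minus serum was 0.00638% (0% higher and 0.00638% lower). DESeq2 called 8 of 19687 genes for that difference and the replicate block 20 (0.128%), so Cpt1a stood alone only in the main fit. The choice of Cpt1a fixed the count among the members, and nothing is read from it. The other 9 members had pInv differences in NPCs from −0.39 ± 0.38 for Acadvl to 0.22 ± 0.23 for Acsl6.

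Cpt1a was also uneven between lines of one genotype in NPCs. It had 7.69, 9.13 and 10.9 CPM in pKO2 and 0.835, 2.52 and 1.73 in pKO1, and pKO1 overlapped the pInv libraries while pKO2 overlapped the highest WT1 libraries. The difference was 2.45 ± 0.50 and was called, in a comparison chosen after these values were seen in which 2.93% of all genes passed, and no other member was called between the pKO lines in any state. In serum and 2i the pKO lines differed in Cpt1a by −0.03 ± 0.16 and −0.08 ± 0.12. WT2 and WT1 NPCs differed by −1.12 ± 0.48, adjusted p = 0.513, which did not pass. The pInv genotype is a single line, so its difference from WT and a difference between lines cannot be told apart. Summed pluripotency markers were 803 to 2319 CPM in pKO NPCs, 621 to 1001 in pInv NPCs and 695 to 1397 in WT NPCs; their part in the result was not tested.

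**Figure D4:**
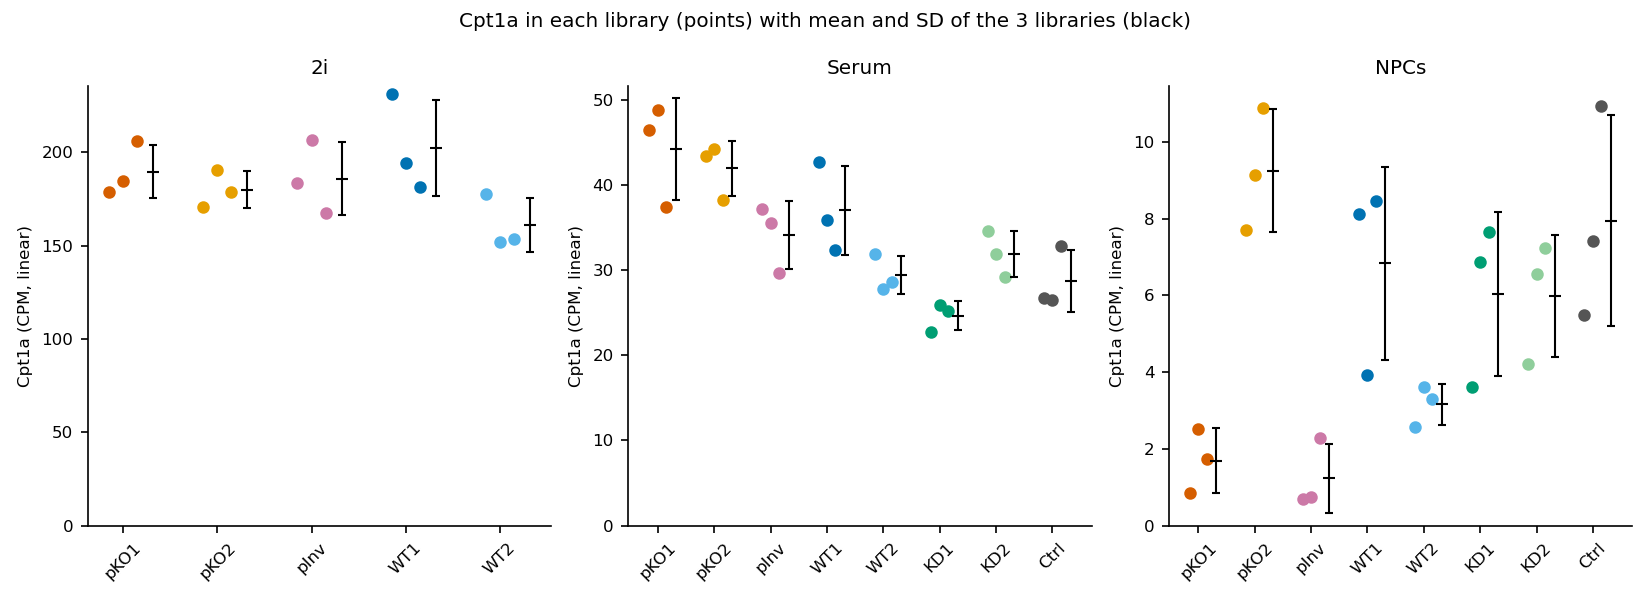
Cpt1a in every library, in CPM on linear axes that differ between panels, by line in 2i, serum and NPCs; points are libraries and black marks the mean and SD of the 3. In NPCs pInv and pKO1 lie at 0.695 to 2.52 CPM and pKO2 at 7.69 to 10.9, with the WT, KD and Ctrl lines between 2.58 and 10.9.

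Knockdown of Meteor was set against the empty vector line, and no member passed in KD against Ctrl in serum or in NPCs, where edgeR's quasi-likelihood test called none of all genes tested (0%), 138 and 179 genes had an unadjusted p under 0.05, none of them members, and DESeq2 called 4 and 2. Cpt1a had 3.62, 6.86 and 7.64 CPM in KD1 NPCs and 4.2, 6.55 and 7.22 in KD2 NPCs, against 5.5, 7.42 and 10.9 in Ctrl NPCs (−0.37 ± 0.31). In serum it had 22.7, 25.9 and 25.2 CPM in KD1 and 34.6, 31.9 and 29.2 in KD2, against 26.7, 26.5 and 32.9 in Ctrl (−0.04 ± 0.13). The KD and Ctrl libraries overlapped in both states. Acsl6 had 2.6, 1.13 and 2.51 CPM in KD1 and 3.28, 1.54 and 2.39 in KD2 serum cultures, against 2.86, 2.04 and 1.26 in Ctrl (0.12 ± 0.41), and in NPCs the difference was 0.20 ± 0.30. The median of chromosome 11 was −0.01 in serum and −0.01 in NPCs. All 10 members overlapped between KD and Ctrl libraries in both states, as did nearly all genes: 0.762% in serum and 1.33% in NPCs did not overlap. None passed the test of a knockdown effect between NPCs and serum, in which no gene passed.

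The 2 WT lines differed from each other in 2i at 2 members, both on chromosome 11. Acsl6 had 23.8, 15 and 13.9 CPM in WT2 and 8.77, 4.23 and 3.96 in WT1 (1.60 ± 0.32, adjusted p = 0.00332), and Acadvl had 11.3, 13.8 and 11.9 CPM in WT2 and 5.81, 7.69 and 5.81 in WT1 (0.92 ± 0.19, adjusted p = 0.00441). In this comparison 18% (9.21% higher and 8.77% lower) of all genes passed. With the replicate block, which pairs these libraries, Acadl (−0.54 ± 0.10, adjusted p = 0.000611) and Cpt1a (−0.35 ± 0.10, adjusted p = 0.0197) were called lower in WT2 as well (29.7% of all genes). The median of chromosome 11 genes in WT2 against WT1 was 0.33 in 2i, 0.20 in serum and 0.07 in NPCs, and 32.1% of them were called higher in WT2 in 2i. Above 0 in 2i were 9 of the 10 tested genes nearest to Acadvl and 8 of the 10 nearest to Acsl6. In the same order the numbers were 8 and 8 in serum and 8 and 7 in NPCs. The part of the chromosome in these results was not tested. In serum and NPCs no member passed between the WT lines; 0.528% (0.134% higher and 0.394% lower) of all genes passed in serum and 0.103% (0.00689% higher and 0.0965% lower) in NPCs. In serum Acadvl had 14.9, 9.94 and 13.2 CPM in WT2 and 13.4, 14.7 and 14.5 in WT1, and Acsl6 had 3.76, 4.65 and 6.7 CPM in WT2 and 3.25, 2.85 and 3.03 in WT1.

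Genes whose group means followed a member most closely are given by Pearson r of log2(CPM + 1) over the 21 groups, among 10964 genes with a mean of at least 5 CPM. For Cpt1a they were Prdm14, a naive pluripotency regulator (0.986), the laminin gene Lamc1 (0.982) and Fbxo6 (0.982). For Cpt1c they were Nav1 (0.960), Tom1l2 (0.949) and Trim3 (0.940). For Acsl6 they were Usp22 (0.952), its neighbour Slc22a5 (0.914) and Tnks (0.913). Among the members, Hadha followed Cpt1a at 0.896 and Slc25a20 at 0.789, the subunits Hadha and Hadhb followed each other at 0.720, and Cpt2 ran against Hadha at −0.873 and against Cpt1a at −0.754. The groups share lines, media and depth, and these values are descriptions.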

How the data were processed

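Gene-level tables of 63 libraries, 1 per library, were used as deposited. Per the submitters' processing notes, the authors used RSEM and the mm9 genome; versions, the aligner and the strand setting are not given in the sources used here, so reads of a gene and of an antisense partner cannot be told apart. RSEM's expected counts, estimated by the authors and deposited unrounded (4.654% to 7.855% of values per library were not whole), were rounded to whole numbers for testing. TPM values, scaled by the authors to gene length and depth, were used as deposited to compare genes. CPM was the expected count scaled to the library total. Rows were named from gene identifiers (23822) or accessions (1157); 10 rows whose identifier matched no name, with 0.672% to 6.046% of a library's counts, stayed in the tests and totals and are not described.

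The main test was edgeR 4.0.16 (R 4.3.3), quasi-likelihood, TMM scaling, a filter on low counts by group, and Benjamini-Hochberg adjustment at 0.05 over all genes tested; SE was taken as the absolute log2 fold change over the root of the F statistic. Genotypes and knockdown were compared within each state, and states and differences of effects in joint fits of the 45 and 18 libraries. DESeq2 1.42.0, RLE scaling, no filter, single lines, lines as replicates, the replicate number as a block and leaving out each library were alternatives. Replicate numbers are shared in the labels; deviations of same-numbered libraries correlated above 0.1 in 30 of 30 pairs in 2i, 30 of 30 in serum, 17 of 30 in NPCs, and 9 of 9 in each state of the knockdown series, so the numbers were read as pairing libraries in all but the genotype series' NPCs. The scripts were tested on simulated data. No 2 libraries agreed within sampling noise. All 10 members passed the filter in every fit. The members, gene lists and marker lists were chosen with earlier results of these data known; all members are named, and of each wider list up to 3 genes with the smallest p per comparison, some of which are not reported here. Promoter sequences are from RefSeq, build GRCm38.p6, which is not the build of the counts. Python 3.11.15, numpy 2.4.6, pandas 2.3.3 and matplotlib 3.10.9 were used.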

Additional observations from a re-analysis of the deposited data

Results flagged for a closer look

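The effect of the inversion on Cpt1a differed between NPCs and serum, with a log2 difference of −2.05 between the pInv effects in the 2 states; this is the value on which the gene was picked, and it is given as a description. It was −1.65 with WT2 as the one WT line, where the call was lost. The call was also lost without any 1 of 7 of the 18 libraries (replicates 1 and 3 of WT1 NPCs, 2 of WT2 NPCs, 1 and 2 of pInv NPCs, and 1 and 2 of pInv serum cultures), and the values over all 18 such fits ran from −2.783 to −1.736. Nothing is read from the fits that kept the call, since the gene was picked on it.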

How the results depend on the processing

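Of 398 alternative values of single members, 361 kept their direction and side of the threshold, 32 lost a call, 1 gained one and 4 reversed; of 705 that left out a library, the numbers were 655, 42, 0 and 8. The 10 members' calls in pKO against WT (1 in 2i, 2 in serum, 1 in NPCs) became 0, 0 and 0 with WT1 alone, 2 in 2i and 2 in NPCs with WT2 alone, 0, 0 and 0 with lines as replicates, 0, 1 and 0 with pKO1 alone, 1 in serum and 0 in NPCs with pKO2 alone, and 1 in serum with no filter or, as an alternative chosen after seeing the data, without the other genes of chromosome 11. With pKO2 alone neither Acsl6 nor Cpt1a kept its call in serum, so the 1 call there was of another member. Leaving out a library gave 1 to 3 calls in serum and 0 to 1 in NPCs (0 without replicate 2 of WT1, 3 of WT2, 1 of pKO1 or 3 of pKO2). The list was picked on pKO against WT, so nothing is read from calls that held. With the replicate block they were 2, 4 and 2 (20.9%, 20.3% and 9.53% of all genes passed). The block also gave 1 for pInv against WT in 2i (5.67%), 4 for WT2 against WT1 in 2i (29.7%), 8 for Ctrl NPCs against serum (70.7%) and 1 for the pKO effect in NPCs minus serum (10.2%). In the NPCs of the genotype series the numbers were not read as pairing libraries. Calls for pInv against WT were 1 in 2i with WT2 alone and 1 in NPCs with DESeq2; those for the pKO effect in NPCs minus serum were 1 with DESeq2 and 1 with pKO1 alone (0 to 1 leaving out a library), and those for KD NPCs against serum 3 with KD1 alone. The Cpt1a call for the pInv effect in NPCs minus serum was 0 with WT2 alone and 0 to 1 leaving out a library, and WT2 against WT1 in 2i gave 2 to 4. Reversals were of small values: Acsl6's pKO effect in serum minus 2i was 0.084 with WT2 alone and 0.001 with pKO2 alone, Cpt1a in pInv against WT was −0.134 in 2i and −0.085 in serum with WT1 alone and −0.016 to 0.114 in 2i leaving out a library, and Cpt1a's pInv effect in serum minus 2i was −0.051 to 0.131. The causes were not tested. Low counts limit Cpt1a in NPCs and Acsl6 in serum.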

Other observations

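1 library, replicate 1 of pKO2 in serum, had the lowest level of its state for Acadl (26.0 CPM), Acadm (20.5 CPM) and, within the genotype series, Hadhb (44.8 CPM).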
